A study of Mus musculus with 6 samples.

Results

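Osteopontin is a secreted, phosphorylated glycoprotein encoded by Spp1. It binds cells through CD44, the hyaluronan receptor, and through integrins, which are heterodimers of an alpha and a beta subunit that join the matrix outside the cell to the actin cytoskeleton inside it. The integrins αvβ1, αvβ3, αvβ5, α5β1 and α8β1 read its arginine-glycine-aspartate site, while α4β1 and α9β1 read the stretch right after that site. In skeletal muscle, osteopontin is known as an attractant of macrophages and as a protein that rises after injury and in dystrophy.

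The ligand gene Spp1 and 9 receptor genes (Cd44, Itgav, Itga5, Itga8, Itga4, Itga9, Itgb1, Itgb3 and Itgb5) were chosen by symbol from 16894 genes, and all 10 were found. The 6 RNA-seq libraries came from fibroadipogenic progenitors (FAPs), mesenchymal cells of muscle that can become fibroblasts or adipocytes, isolated by magnetic sorting from leg muscles of male and female C57BL/6 mice aged 3 to 6 months, as cells that lacked CD45, CD31 and α7-integrin and carried SCA-1. Both groups were primary cultures grown in medium with serum and recombinant bFGF at low oxygen. The 3 senescent FAP libraries came from cells given etoposide, an inhibitor of topoisomerase that breaks DNA, at 20 μM over 48 h and then kept for 5 days without it, and the 3 control FAP libraries from non-senescent cells. Whether control FAPs received the drug's solvent is not given in the sources used here, nor is whether the replicates are separate mice or only separate cultures, so p values measure the spread between these libraries.

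Genes received 41412179 to 59912520 reads per library. Levels are given in CPM, the reads of a gene scaled to a common library size that edgeR had adjusted, and 1 read was worth 0.0167 to 0.0225 CPM. Where 3 values are listed for a group, they follow the order of replicates 1, 2 and 3. FAP markers were present in every library: Pdgfra had 126 to 254 CPM and Ly6a, which encodes SCA-1, 220 to 678 CPM, while Lum, a matrix proteoglycan of fibroblasts, was as low as 0.179 CPM in control FAPs. Differences were tested with limma, on log2(CPM + 0.5), for the 14776 genes that reached 0.5 CPM in 3 or more libraries, and the 10 members were among them. At a Benjamini-Hochberg adjusted p under 0.05, 21.8% of all genes tested were higher and 24.3% lower in senescent FAPs.

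Spp1 lies on the plus strand of chromosome 5 (GRCm38, chr5:104435118-104441050, GENCODE M21). The stretch of its coding sequence that the integrins read is shown first, because the receptor genes below divide by which part of it they bind. It lies within exon 6 of 7 of the transcript that served as reference (chr5:104439466-104439510, plus strand) and occurs once in each of the 5 coding transcripts checked. Capitals mark the codons of arginine, glycine and aspartate, and the 21 bases after them encode the site read by α4β1 and α9β1.
Spp1 integrin-binding site: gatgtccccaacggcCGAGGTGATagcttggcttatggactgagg
The 250 bases before the RefSeq start of Spp1 (GRCm38.p6, chr5:104434861-104435110, plus strand) are shown because transcription factors written as known to act on the Spp1 promoter were measured in the same libraries. Whether these factors act within this window was not tested. Capitals mark the match to TGTGGT, the core bound by RUNX factors, which lies on the minus strand and begins 128 bases before the start.
Spp1 promoter: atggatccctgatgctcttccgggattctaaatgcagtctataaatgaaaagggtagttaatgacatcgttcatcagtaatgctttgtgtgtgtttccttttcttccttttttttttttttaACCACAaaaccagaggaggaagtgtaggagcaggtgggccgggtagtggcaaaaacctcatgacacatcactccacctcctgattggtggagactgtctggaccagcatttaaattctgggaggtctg
Both strands were searched. The core stood in 14.0% of 32851 promoters of this length and the AP-1 motif TGANTCA in 6.75%, and the latter had no match in this window. Of the 9 members with a promoter entry, Itga4 held the other match to the RUNX core.

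Spp1 rose in senescent FAPs. It had 331, 2041 and 384 CPM in control FAPs and 2991, 3891 and 4096 CPM in senescent FAPs. All senescent libraries were above all control libraries, but control replicate 2 stood far above the other control libraries, and the lowest senescent value was only 1.47 times its value. The means were 919 ± 973 CPM in control FAPs and 3659 ± 588 CPM in senescent FAPs (SD, n = 3 each), a 3.98-fold difference of means. On log2(CPM + 0.5), the log2 fold change was 2.51 (standard error 0.62, 95% interval 1.06 to 3.96, limma adjusted p = 0.0140).

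Same-numbered cultures deviated together across all genes, most clearly for replicate 1, so the folds within each number are given as well. Spp1 was 9.03-fold higher in senescent than in control replicate 1, 1.91-fold in replicate 2 and 10.7-fold in replicate 3. The low fold of replicate 2 came with the high control value. Without control replicate 2 the log2 fold change was 3.35 (limma adjusted p = 2.40e-05), and without senescent replicate 3 it was 2.42 with a limma adjusted p of 0.0552. Spp1 took 0.0304% to 0.192% of the reads on genes in the controls and 0.320% to 0.440% in senescent FAPs. Spp1 shares 309 exon bases with Gm42793, an unlisted gene model on the same strand.

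The spread of Spp1 among control FAPs was itself unusual for these libraries. Its coefficient of variation there was 106%, above that of 99.4% of the genes tested, whose median was 11.9%. In senescent FAPs it was 16.1%. Control replicate 2 was also the highest control library for all 10 members, whereas it was the highest for 38.9% of all genes tested. The plot of each gene by library shows this as the square that tops each control column.

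**Figure D1:**
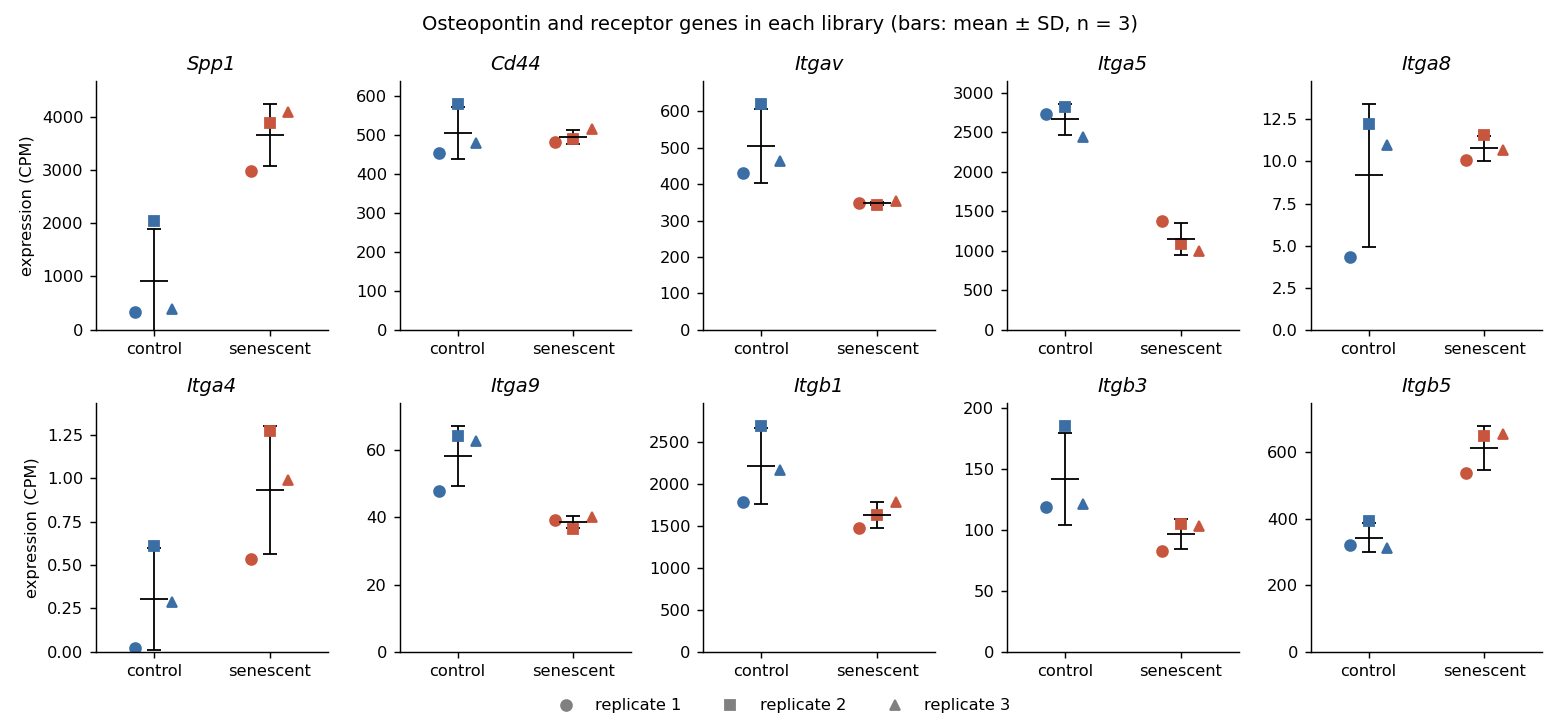
Expression in CPM (vertical axes, each from 0) of the ligand gene and the 9 receptor genes in control and senescent FAPs. Points are libraries, with the symbol giving the replicate number, and bars are the mean ± SD of 3 libraries, with the lower bar of Spp1 in control FAPs ending at the axis. Spp1 and Itgb5 lie higher in all 3 senescent libraries, and Itga5 falls from 2437 to 2822 CPM in control FAPs to 990 to 1373 CPM.

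Macrophages and osteoblasts express Spp1 strongly, so their markers were read in the same libraries. Of 17 macrophage and leukocyte markers written, 9 were listed, and Ptprc, Adgre1 and C1qa were not among them. Their summed level was 13.9 to 16.7 CPM in control FAPs and 30.8 to 37.8 CPM in senescent FAPs. Of the 6 tested, 4 rose (66.7%, beside 21.8% of all genes tested), namely Lyz2, Cd68, Itgam and Cd53. Of these 4, Itgam reached the filter of 0.5 CPM only through its senescent libraries. Cd53 was the highest of them at 13.7 CPM in senescent replicate 3, where Spp1 had 4096 CPM. Among control libraries, Cd53 had 0.960, 3.92 and 1.08 CPM, the same order as Spp1, but the other tested markers did not share that order. Cd14 had 2.99, 2.11 and 2.48 CPM and Csf1r 7.36, 6.24 and 6.62 CPM, lowest in control replicate 2. Lyz2 was highest in control replicate 3 and Itgam in control replicate 1, while Cd68 had 1.43, 1.84 and 1.15 CPM. Of 7 osteoblast markers written, 5 were listed, with a summed level of 14.5 to 38.5 CPM in control FAPs and 9.86 to 17.8 CPM in senescent FAPs. Sp7, a transcription factor of osteoblasts, fell with overlapping groups (log2 fold change −1.37, limma adjusted p = 0.0245, lost without control replicate 1 or 3 or senescent replicate 2 or 3). Bglap2, an osteocalcin gene, rose from at most 0.0898 CPM to at least 1.22 CPM, and reached the filter only through its senescent libraries. The part of such cells in the Spp1 result was not tested. In bulk cultures, fewer cells of a type and less RNA per cell cannot be told apart.

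Of the 9 receptor genes, 1 rose and 4 fell in senescent FAPs (limma, adjusted p under 0.05). These 5 of 9 stand beside 46.1% of all genes tested, so the share called is near the background. In 1 receptor gene all senescent libraries were above all control libraries and in 5 they were below, against 26.5% and 30.9% of the genes tested. The median log2 fold change of the receptor genes was −0.43, against −0.03 over all genes tested. Without senescent replicate 2 or without senescent replicate 3, 2 receptor genes were lower. The genes lower among all 14776 tested were then 2416 and 2640, against 3592 in the main fit. Without control replicate 2 or senescent replicate 1, 2 receptor genes were higher, and 3405 and 2888 of all genes, against 3218 in the main fit. With the replicate number as a block, 2 receptor genes were higher and 5 lower, beside 3576 and 3947 of all genes tested. With division by library totals alone, which moved the median log2 fold change of all genes by 0.20 and the share of calls that were higher from 47.3% to 72.1%, 2 were higher and 2 lower. Relative to the median of all genes, which removes such a uniform shift by construction, the log2 fold change was −1.19 for Itga5, 0.87 for Itgb5 and −0.49 for Itgav. After quantile normalization, which is not uniform over genes, these values were −0.93, 1.05 and −0.30.

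**Figure D2:**
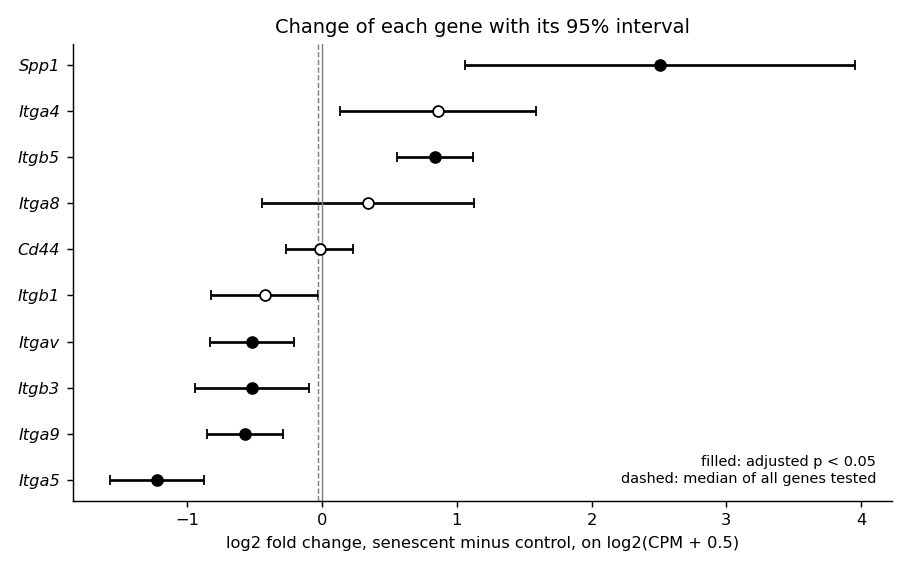
Log2 fold change of each gene on log2(CPM + 0.5), senescent minus control (horizontal axis), with its 95% interval from limma (3 libraries a group). Filled points passed an adjusted p of 0.05 and the dashed line is the median of all genes tested. Spp1 at 2.51 and Itga5 at −1.23 are the extremes, and the interval of Cd44 runs from −0.27 to 0.23.

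Cd44 (chr2:102811141-102901665, minus strand) is the receptor of osteopontin that is not an integrin. It had 454, 581 and 480 CPM in control FAPs and 481, 489 and 516 CPM in senescent FAPs. The groups overlapped, with the senescent values inside the control range. The log2 fold change was −0.02 (limma adjusted p = 0.895) with a 95% interval from −0.27 to 0.23, so changes larger than this in either direction lie outside the interval. The sign was not stable: the value ran from −0.09 to 0.21 over the alternatives. It was positive without control replicate 2 (0.09), with division by library totals alone (0.19) and after quantile normalization (0.21). Smaller positive values came without senescent replicate 1 (0.001), with array weights (0.03) and by DESeq2 (0.01).

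Among the alpha subunits that read the arginine-glycine-aspartate site, Itga5 fell the most. Itga5 (chr15:103344286-103366763, minus strand) encodes α5, which pairs with β1 to form the main fibronectin receptor. It had 2723, 2822 and 2437 CPM in control FAPs and 1373, 1078 and 990 CPM in senescent FAPs. Each senescent library was far below each control library, and the means were 2661 ± 200 CPM and 1147 ± 201 CPM (SD, n = 3 each), 2.32-fold lower in senescent FAPs. Its log2 fold change was −1.23 (standard error 0.15, limma adjusted p = 8.06e-04), and it held under all 18 alternative settings, from −1.36 to −0.94.

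Itgav (chr2:83724397-83806916, plus strand) encodes αv, the partner of β1, β3 and β5 in the vitronectin-type receptors. It had 432, 622 and 464 CPM in control FAPs and 347, 344 and 353 CPM in senescent FAPs. The senescent libraries lay close together and below all controls. The log2 fold change was −0.52 (standard error 0.13, limma adjusted p = 0.0162). The call was lost without senescent replicate 2 (limma adjusted p = 0.0585), without senescent replicate 3 (0.0523), with division by library totals alone (log2 fold change −0.31, adjusted p 0.108) and after quantile normalization (−0.32, adjusted p 0.0877). Itgav shares 634 exon bases with an unlisted transcript on the opposite strand, and whether the counting used strand is not given in the sources used here.

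Itga8 (chr2:12106632-12301922, minus strand) encodes α8, which binds nephronectin as well as osteopontin. It had 4.33, 12.2 and 11.0 CPM in control FAPs and 10.1, 11.6 and 10.7 CPM in senescent FAPs. Control replicate 1 was the low library, and the groups overlapped. Its log2 fold change was 0.34 (95% interval −0.45 to 1.13, limma adjusted p = 0.441), and without control replicate 1 it was −0.10. Itga8 shares 372 exon bases with an unlisted transcript on the opposite strand.

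The alpha subunits that read the stretch after the arginine-glycine-aspartate codons were below Itgav and Itga5, but Itga9 was above Itga8 in each library. Itga9 (chr9:118606690-118901003, plus strand), which encodes α9, a receptor for tenascin-C and osteopontin, had 47.8, 64.1 and 62.6 CPM in control FAPs and 39.2, 36.6 and 40.1 CPM in senescent FAPs. It fell, with the groups fully apart, by 0.57 on the log2 scale (standard error 0.12, limma adjusted p = 0.00706), and passed the threshold under all 18 alternatives.

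Itga4 (chr2:79255426-79333123, plus strand) encodes α4, an integrin subunit best known from leukocytes, where it binds VCAM1. It was covered by only 1, 32 and 16 reads in control FAPs and by 27, 76 and 44 reads in senescent FAPs. The groups overlapped, because control replicate 2 had 0.608 CPM and senescent replicate 1 had 0.536 CPM. The log2 fold change of 0.86 (standard error 0.31) did not pass the threshold (limma adjusted p = 0.0546). With the replicate number as a block the limma adjusted p was 0.00560, without control replicate 2 it was 0.0144 with a log2 fold change of 1.12, and without senescent replicate 1 it was 0.0363. At these read numbers the value depends on the pseudocount, with log2 fold changes of 1.61 at a pseudocount of 0.1, 1.60 by edgeR and 1.63 by DESeq2 (adjusted p 0.0712, 0.111 and 0.0918). Itga4 shares 1124 exon bases with Cerkl on the opposite strand, which had 0.401 ± 0.116 CPM in control FAPs and 0.624 ± 0.165 CPM in senescent FAPs (SD, n = 3 each), so reads of the pair cannot be told apart if strand was not used in counting.

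The beta subunits moved in different directions. Itgb5 (chr16:33829665-33949338, plus strand) encodes β5, which pairs with αv alone, and was the receptor gene that rose. It had 323, 394 and 314 CPM in control FAPs and 537, 650 and 654 CPM in senescent FAPs. All senescent libraries were above all controls, with means of 344 ± 44.2 CPM and 614 ± 66.4 CPM (SD, n = 3 each), 1.79-fold higher in senescent FAPs. The log2 fold change was 0.84 (standard error 0.12, limma adjusted p = 0.00157). Within same-numbered cultures Itgb5 was 1.67-fold, 1.65-fold and 2.08-fold higher in replicates 1, 2 and 3, and it passed the threshold under all 18 alternatives.

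Itgb3 (chr11:104608000-104670476, plus strand) encodes β3, the partner of αv in the classical osteopontin receptor of osteoclasts. It had 119, 185 and 121 CPM in control FAPs and 82.6, 105 and 103 CPM in senescent FAPs. All senescent values were below all control values. Its log2 fold change was −0.52 (standard error 0.18, limma adjusted p = 0.0473), close to the threshold. Leaving out control replicate 3, senescent replicate 1, 2 or 3 moved the adjusted p above it (0.0518, 0.134, 0.0834 and 0.0902), and without control replicate 2 the log2 fold change was −0.31.

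Itgb1 (chr8:128685654-128733200, plus strand) encodes β1, the common partner of most alpha subunits. It had 1788, 2694 and 2168 CPM in control FAPs and 1477, 1635 and 1779 CPM in senescent FAPs. Senescent replicate 3 was only just below control replicate 1. The log2 fold change was −0.43 (standard error 0.17) and did not pass the threshold (limma adjusted p = 0.0746). With the replicate number as a block the limma adjusted p was 0.0347, and without control replicate 1 it was 0.0298 with a log2 fold change of −0.57. The log2 fold change was −0.28 without control replicate 2, −0.21 with division by library totals alone (adjusted p 0.350) and −0.06 after quantile normalization (adjusted p 0.772).

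Levels of different genes were compared per kilobase of exon. By the mean of control FAPs the order from the top was Spp1, Itgb1 and Itga5, then Itgb5, Cd44, Itgav, Itgb3, Itga9, Itga8 and Itga4. The first 3 had mean levels of 557, 543 and 539 CPM per kilobase, and their ranges overlapped from each to the next. The first place of Spp1 rested on control replicate 2. Spp1 had 201, 1239 and 233 CPM per kilobase in control FAPs, and in control replicates 1 and 3 it was below both Itgb1, with at least 438, and Itga5, with at least 494. Without control replicate 2, an alternative chosen after seeing the data, the order was Itga5 (523), Itgb1 (485) and Spp1 (217 CPM per kilobase). Below these 3 genes the ranges of neighbours did not overlap. In senescent FAPs the ranges of no neighbours overlapped, and Spp1 was first in each library. Spp1 had 2221 ± 357 CPM per kilobase (SD, n = 3), above Itgb1 with 399.5 ± 37.1 and Itga5 with 232 ± 40.7 CPM per kilobase. By mean CPM per kilobase among the 15944 genes with a length, Spp1 was at place 54 in control FAPs, or 187 without control replicate 2, and at place 6 in senescent FAPs, while Itga5 moved from 56 to 125, Itgb5 from 449 to 198 and Cd44 from 601 to 551. Itga4 stood at place 15460 and 15557.

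**Figure D3:**
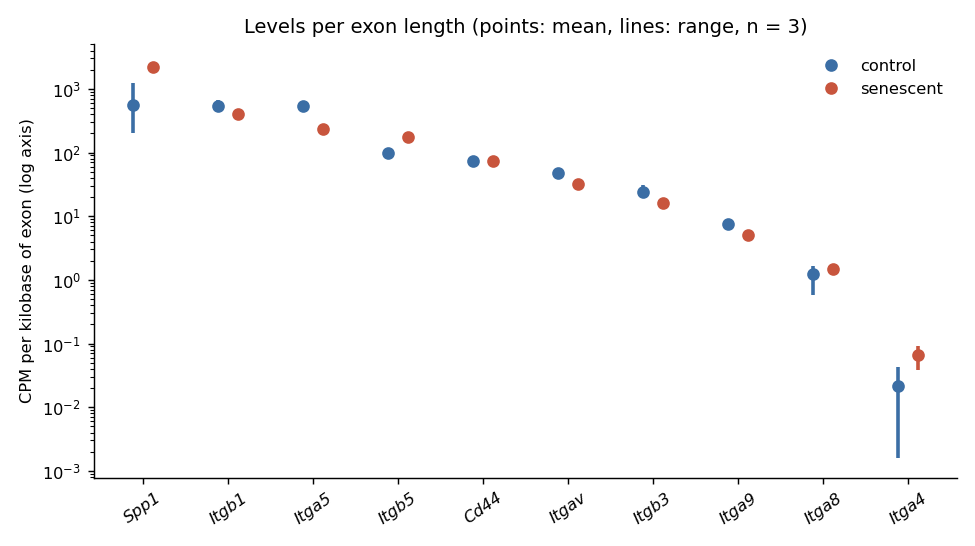
Mean CPM per kilobase of exon (log axis) of each gene in control and senescent FAPs, with lines from the lowest to the highest of 3 libraries, ordered by the control mean. The range of Spp1 in control FAPs, 201 to 1239, covers those of Itgb1 and Itga5, while in senescent FAPs it lies above both.

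Ratios between genes within a library do not depend on how the libraries were scaled. Those with Itgb5 on top were higher in all senescent libraries. Itgb5 over Itgb3, per kilobase, was 4.52, 3.54 and 4.31 in control FAPs and 10.8, 10.3 and 10.5 in senescent FAPs. Itgb5 over Itgav was 2.07 ± 0.172 in control FAPs and 5.33 ± 0.570 in senescent FAPs, and Itgb5 over Itgb1 was 0.181 ± 0.0231 and 0.432 ± 0.0212 (SD, n = 3 each). Of the summed level per kilobase of Itgb1, Itgb3 and Itgb5, the mean share of Itgb5 was 14.7% in control FAPs and 29.3% in senescent FAPs, and that of Itgb1 81.7% and 67.9%.

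In 2 pairs the groups overlapped. Itgb3 over Itgav was 0.506 ± 0.0346 in control FAPs and 0.507 ± 0.0647 in senescent FAPs, and Itgav over Itgb1 was 0.0869 ± 0.00520 and 0.0815 ± 0.00716 (SD, n = 3 each). Itga5 over Itgb1 was lower in all senescent libraries, at 1.02 ± 0.211 in control FAPs and 0.592 ± 0.160 in senescent FAPs, while Itgav over Itga5 was 0.0871 ± 0.0142 and 0.142 ± 0.0240 (SD, n = 3 each). Spp1 over Cd44 was 3.00, 14.5 and 3.28 in control FAPs and 25.6, 32.7 and 32.6 in senescent FAPs, and Spp1 over Itgav was 10.6 ± 9.36 and 68.5 ± 10.8 (SD, n = 3 each). In 7 of the 9 ratios computed the groups did not overlap (exact permutation test, two-sided, p = 0.1, which is the lowest p possible with groups of 3, and 0.129 adjusted over the 9 ratios). The share of all gene pairs apart in this way was not computed. Of single genes tested, 26.5% were fully apart as higher and 30.9% as lower. The pairs were chosen by hand and reuse genes whose own changes are given above, so this count is no separate result.

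**Figure D4:**
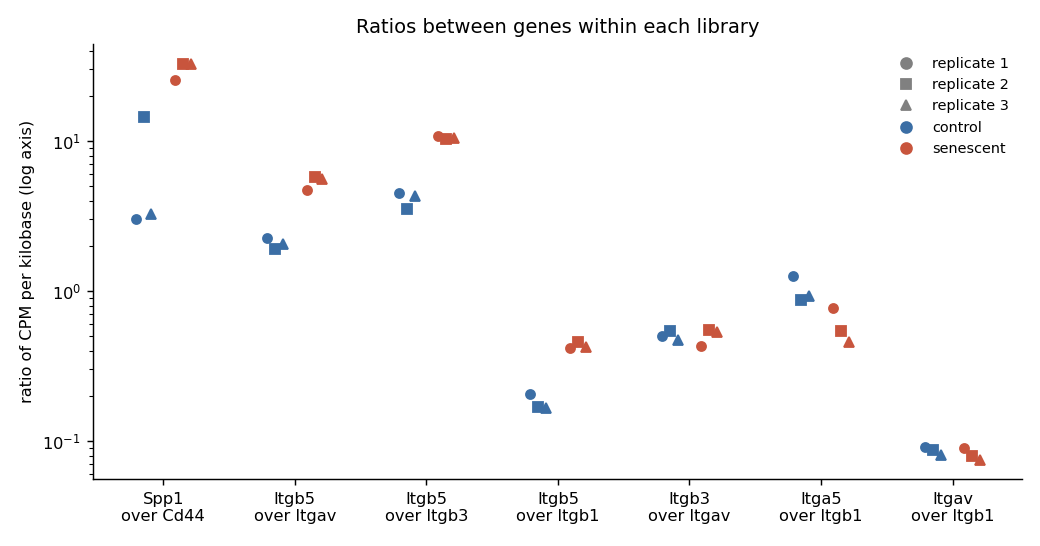
Ratios of CPM per kilobase between pairs of genes in each library (log axis), with colour for the group and symbol for the replicate number. The 3 ratios with Itgb5 on top are higher in all senescent libraries, while Itgb3 over Itgav and Itgav over Itgb1 overlap.

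The genes whose pattern over the 6 libraries was most like that of Spp1 on log2(CPM + 0.5) were Grik4, Akr1c18, Asap1, Smox and Spock1, with Pearson r from 0.997 to 0.999. These points share their libraries and the group difference. Spock1 had at most 0.342 CPM in control FAPs and at least 0.516 CPM in senescent FAPs. It reached the filter only through its senescent libraries, so being compared already required it to be higher there. Akr1c18, an aldo-keto reductase, had 1.00, 25.6 and 1.18 CPM in control FAPs and 57.5, 96.6 and 104.6 CPM in senescent FAPs. Asap1, which encodes a regulator of ARF GTPases at adhesions, had 171, 227 and 173 CPM and 236, 247 and 245 CPM in the same order, and Grik4 had at most 1.22 CPM in any library. After the group mean was taken out of each gene, the closest were Akr1c18, Smox, Asap1 and Raet1d (r from 0.998 to 0.999 over 6 libraries). The receptor genes then ranged from Itgav (0.981), Cd44 (0.974) and Itgb3 (0.947) down to Itga5 (0.107). Between these lay Itgb1 (0.886), Itgb5 (0.831), Itga4 (0.785), Itga8 (0.641) and Itga9 (0.580). The share of all genes with such values was not computed. Control replicate 2 weighs heavily in these values, which are descriptions.

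Other genes of the pathway were read from 7 lists. Of 95 genes written, 71 were tested, of which 18 (25.4%) passed the threshold as higher and 24 (33.8%) as lower (limma), beside 21.8% and 24.3% of all genes. The replicate block gave 18 higher and 30 lower, beside 3576 and 3947 of all 14776 genes tested. The share of all genes called in either direction, 46.1%, is the background for each list below. Of the 4 genes written for relatives of osteopontin in the matrix of bone and teeth, 0 were listed.

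Among the enzymes known to act on osteopontin, most of those tested rose. Of 11 written, 8 were listed, without F2 (thrombin), Mmp7 and Mmp12, and Phex was too low to be tested. Of 7 tested, 5 were higher and 1 lower (85.7% called), with a median log2 fold change of 0.79 against −0.03 over all genes. In each fit that left out a library 4 were higher, except that without control replicate 2, which gave 5. Mmp3, which encodes stromelysin-1, a protease that cleaves osteopontin near its integrin site, had 1.38, 5.40 and 3.82 CPM in control FAPs and 32.8, 53.0 and 59.0 CPM in senescent FAPs, which is a log2 fold change of 3.70 (standard error 0.41, limma adjusted p = 5.62e-04). Mmp9, a gelatinase, rose by 1.27 on the log2 scale from at most 0.592 CPM to at least 1.62 CPM, and Ctsd, the lysosomal protease cathepsin D, rose by 0.89. Fam20c, which encodes the kinase of secreted phosphoproteins, was the enzyme that fell (−0.33). Its call was lost with division by library totals alone, after quantile normalization and in 5 of the 6 fits that left out a library, all but that without control replicate 2.

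Outside the osteopontin receptors, integrin subunits went in both directions. Of 13 tested, 6 were higher and 2 lower (61.5% called, beside 46.1% of all genes), with a median log2 fold change of 0.34. Itgb4, which encodes the β4 of hemidesmosomes, Itga2, a collagen receptor subunit, Itgb2 and Itgam, both subunits of leukocyte integrins, and Itga10, a collagen receptor subunit, rose by 1.27, 1.27, 1.16, 1.11 and 0.93, but these 5 did not exceed 7.38 CPM in any library. The value of Itgam depends on the pseudocount, since it was at 0 CPM in control replicates 2 and 3, and was 2.60 at a pseudocount of 0.1, 4.86 by edgeR and 5.00 by DESeq2. Itgam reached the filter only through its senescent libraries, so being tested already required it to be higher there. The other subunit that rose was Itga7, which encodes the α7 that the sort selected against, from 9.17 to 12.3 CPM in control FAPs to 15.7 to 23.6 CPM (log2 fold change 0.83, limma adjusted p = 0.00771). The subunits that fell were Itga1 (−0.97) and Itga11 (−0.66), which encode collagen receptors and were at 19.4 to 53.9 CPM and 286 to 637 CPM. The call for Itga11 was lost with division by library totals alone (−0.44, adjusted p 0.0613) and after quantile normalization (−0.46, adjusted p 0.0554). With the replicate number as a block, Itga3, a laminin receptor subunit, was lower as well (−0.55, limma adjusted p 0.0188 against 0.105 without the block).

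Among the cytoplasmic partners of integrins, of 18 adhesion adaptor genes tested, 8 were lower and 2 higher (55.6% called, near the 46.1% of all genes), with a median log2 fold change of −0.21. Under the replicate block 9 were lower and 3 higher, the additional genes being Bcar1 (limma adjusted p 0.0253) and Parvb (0.0381). Tln2, which encodes a talin that activates integrins, had 345, 274 and 260 CPM in control FAPs and 189, 136 and 117 CPM in senescent FAPs, which is a log2 fold change of −1.01 (limma adjusted p = 0.00376). Vcl, which encodes vinculin, fell by 0.69 and Zyx, which encodes the focal adhesion protein zyxin, by 0.59 on the log2 scale. Ptk2b, which encodes the kinase PYK2, had a log2 fold change of 1.11 and rose from 27.1 to 43.3 CPM in control FAPs to 61.2 to 81.9 CPM, while Ptk2, its relative FAK, had 116 to 120 CPM in control FAPs and 108 to 114 CPM in senescent FAPs (limma adjusted p = 0.330).

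Among 15 other ligands of the same receptors tested, 6 were lower and 2 higher (53.3% called, near the 46.1% of all genes), with a median log2 fold change of −0.31. Under the replicate block 8 were lower, the additional genes being Postn (limma adjusted p 0.00503) and Tgfb1 (0.0159). Fbn1, which encodes fibrillin-1, fell by 1.31 on the log2 scale, from 4700 to 6778 CPM in control FAPs to 2131 to 2742 CPM, Tnc, which encodes tenascin-C, a ligand of α9β1, by 1.04 and Cyr61, a matricellular protein, by 0.60. Vcam1, the ligand of α4β1, went the other way, with 34.6, 32.2 and 35.6 CPM in control FAPs and 70.8, 81.3 and 80.1 CPM in senescent FAPs, which is a log2 fold change of 1.17 (standard error 0.08, limma adjusted p = 1.61e-04). Fn1, the fibronectin that α5β1 binds, had 20519 to 25876 CPM in control FAPs and 17101 to 21641 CPM in senescent FAPs, with overlapping groups. Without control replicate 1 or 3 or senescent replicate 2 or 3, the ligands that rose were 1.

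**Figure D5:**
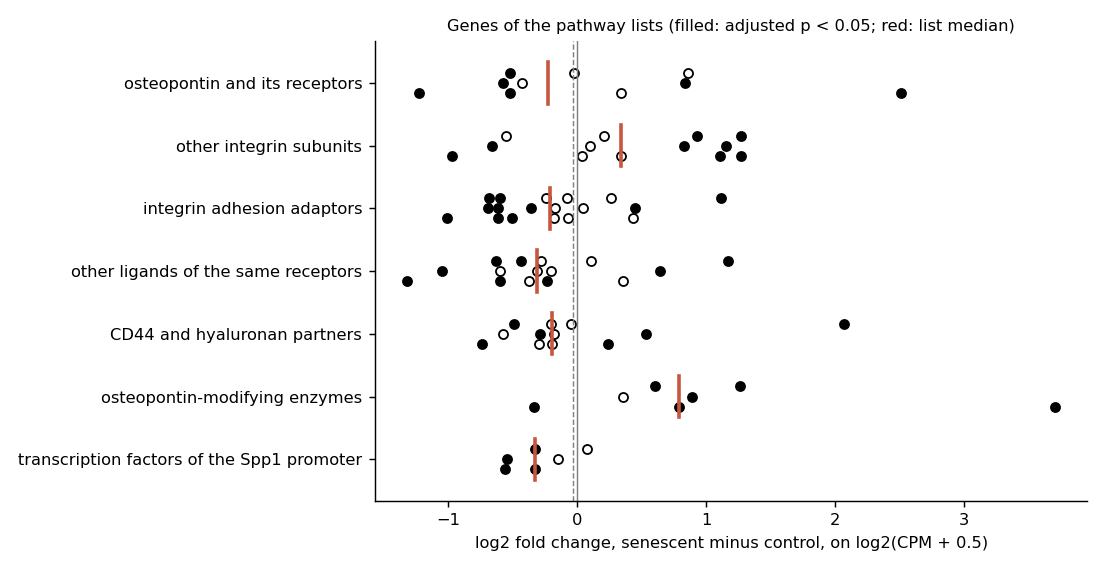
Log2 fold change on log2(CPM + 0.5), senescent minus control (horizontal axis), of each tested gene in the member list and in 6 other lists, with filled points past an adjusted p of 0.05 and red lines at list medians. The osteopontin-modifying enzymes have the highest median, 0.79, and the transcription factors the lowest, −0.33.

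Of 12 genes tested around CD44 and hyaluronan, 3 were higher and 3 lower (50%, near the 46.1% of all genes). The genes called higher include Has3, which reached the filter only through its senescent libraries. Hyal1, a lysosomal hyaluronidase, had 8.10, 7.15 and 9.62 CPM in control FAPs and 30.0, 38.1 and 41.3 CPM in senescent FAPs, which is a log2 fold change of 2.07 (standard error 0.16, limma adjusted p = 1.79e-04). Mmp14, a membrane protease that sheds CD44, fell by 0.48 and Adam17, another sheddase, by 0.29 on the log2 scale. Calls for both were lost with division by library totals alone (adjusted p 0.115 and 0.436), after quantile normalization (0.147 and 0.0862), without control replicate 1 (0.0507 and 0.0588) and without senescent replicate 2 (0.0732 and 0.0903), that for Mmp14 without senescent replicate 3 (0.0688) and that for Adam17 without control replicate 3 (0.0821). The list had 1 gene higher without control replicate 1 or 2 or senescent replicate 2 or 3, and 0 to 1 lower without control replicate 1 or 3 or senescent replicate 2 or 3. The replicate block gave 2 higher and 5 lower, with Ezr (limma adjusted p 0.0142) and Adam10 (0.0149) gained and Hyal2 (0.0595) lost.

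Of 7 factors written as known to act on the Spp1 promoter, 6 were tested. Of these, 4 were lower and 0 higher by limma (66.7% called, beside 46.1% of all genes, with 24.3% lower). At an unadjusted p under 0.05 or by edgeR and DESeq2, 0 were higher. Fos, an AP-1 subunit, had 245, 191 and 229 CPM in control FAPs and 143, 138 and 169 CPM in senescent FAPs, which is a log2 fold change of −0.56 (limma adjusted p = 0.00723). Vdr, the vitamin D receptor, fell by 0.54 and Ets1 by 0.33 on the log2 scale. Runx2, whose family's core is marked in the promoter above, had 94.0 to 102 CPM in control FAPs and 70.4 to 89.7 CPM in senescent FAPs (log2 fold change −0.33, limma adjusted p = 0.0293). The call for Runx2 was lost without control replicate 1 or 3 or senescent replicate 2 or 3 (0.0758, 0.0841, 0.0974 and 0.0933). It was also lost with division by library totals alone (limma adjusted p 0.357), after quantile normalization (0.124) and with no variance trend (0.0547). With division by library totals alone, 1 of the 4 factors passed the threshold. Gli1, a mediator of hedgehog signalling, was too low to be tested, with 0.424, 0.171 and 0.215 CPM in control FAPs and 1.33, 0.468 and 0.473 CPM in senescent FAPs, all above the controls.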

How the data were processed

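RNA of 3 control and 3 senescent FAP cultures was sequenced from stranded, poly(A)-selected libraries (TruSeq Stranded mRNA). Per the labels, the submitters' processing notes name the build mm10, edgeR 3.10 and R 3.6.0. The aligner, counter, annotation and filter are not given in the sources used here. The deposited values are signal: CPM that the authors had divided by edgeR's effective library size, with sums of 919819 to 1090570 per library. They were assumed to be plain CPM when the design was fixed, and the limma test planned for CPM was kept. From their steps, whole reads were recovered for 100% of values (tolerance 0.01 read), and edgeR and DESeq2 were run on these reads as alternatives. A row that names no gene (0.00409% to 0.00699% of reads) was left out.

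Values were tested with limma 3.58.1 (R 4.3.3, trended variance, two-sided) on log2(CPM + 0.5) for genes at 0.5 CPM or more in at least 3 libraries, with Benjamini-Hochberg adjustment. The limma step was run on simulated counts with the same dispersion for all genes and few changed genes. That setting is simpler than these data, so the run checks the code and not the calls given here. Alternatives were pseudocounts of 0.1 and 1, no filter or one of 2 CPM, 3 other scalings, each library left out, the replicate number as a block, array weights, no trend, edgeR 4.0.16 and DESeq2 1.42.0. Control and senescent libraries of the same number deviated together from their group means (r = 0.54, 0.31 and 0.21), which comes from the data and not from the labels. Pairs of unlike number had r from −0.36 to 0.15, the highest for control replicate 2 with senescent replicate 3. The pairing was thus clearest for replicate 1. Blocked values stand beside the calls they changed among the members and pathway lists. Replicate pairs differed beyond sampling noise, so all were counted.

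The members and lists were chosen with earlier results of these data known. Genes named were the members, the 3 smallest p values of each list, list genes beyond a log2 fold change of 1 and the 5 most like Spp1, of which 1 is not reported here. Runx2, Ptk2, Fn1, Fam20c, Itga1, Itga11, Itga7, Gli1, Has3, the genes whose call the block changed, and the markers Sp7, Bglap2, Cd14, Csf1r and Thy1 were named after their values were seen. Positions are from GENCODE M21 (GRCm38), lengths are unions of exons, and promoters are from RefSeq. Intervals cover 95%.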

Additional observations from a re-analysis of the deposited data

How the results depend on the processing

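Itga5, Itgb5 and Itga9 kept their direction and stayed past the threshold under the 18 alternatives run, and Cd44 and Itga8 stayed short of it. Spp1 ranged from 2.03 to 3.35 (log2 fold change) when 1 library was left out, with a highest adjusted p of 0.0552. The same range was −0.63 to −0.36 for Itgav, −0.63 to −0.31 for Itgb3, −0.57 to −0.28 for Itgb1 and 0.58 to 1.12 for Itga4. It was 1 to 2 for receptor genes higher, 2 to 5 for receptor genes lower, 2130 to 3405 for all genes higher and 2416 to 3875 for all genes lower, with the lowest of both without senescent replicate 2. With division by library totals alone, 4992 genes were higher and 1929 lower, 2 receptor genes were higher and 2 lower, 13 genes of the 7 pathway lists were lower, and the log2 fold changes were −0.31 for Itgav and −0.31 for Itgb3, both short of the threshold, and 0.96 for Itga4, past it. Quantile normalization gave 2 receptor genes lower, −0.32 for Itgav and −0.42 for Itgb3, both short of it. Itgb3 was also short of the threshold with a filter at 2 CPM (−0.52), median-of-ratios scaling (−0.50), no variance trend (−0.52) and edgeR (−0.52). Itga4 passed it with no filter (0.86) and array weights (1.06), and Itgb1 with array weights (−0.39) and DESeq2 (−0.41). Receptor genes higher were 2 with no filter and with array weights. With the replicate number as a block, Itga4 (0.86) and Itgb1 (−0.43) passed the threshold and 2 receptor genes were higher, and the pairing changed no other call among the members. The cause of these changes was not tested. With the exon length of the longest transcript, Itga5 and Itgb1 changed places in control FAPs. Leaving control replicate 2 out of these levels, chosen after seeing the data, put Spp1 below both. Of the other values recomputed, among single genes and lists, 1805 kept their call, 82 lost it, 57 gained one and 28 counts moved by over 1.5 times, and none changed sign past the threshold. Depth limits Itga4, which had 1 to 76 reads per library.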

Other observations

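Markers of other cells differed in their summed levels. Of 7 myogenic markers written, only Des and Itga7 were listed, and Pax7, Myf5, Myod1, Myog and Cdh15 were not. These 2 summed to 14.3 to 19.3 CPM in control FAPs and 23.4 to 30.2 CPM in senescent FAPs. Of them Itga7 was higher and Des was not called. Endothelial markers summed to 19.2 to 39.5 CPM and 23.8 to 31.2 CPM, with 2 of 4 higher and 1 lower, and pericyte and smooth muscle markers to 291 to 399 CPM and 201 to 211 CPM, with 1 of 5 higher and 2 lower. Of 8 FAP markers, 4 were higher and 1, Col1a1, the chain of collagen I, was lower in senescent FAPs (log2 fold change −2.29, limma). All these marker counts stand beside 21.8% of all genes tested higher and 24.3% lower.

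Thy1, a surface marker of mesenchymal cells, followed the replicate number. It had 489, 41.3 and 61.6 CPM in control replicates 1, 2 and 3 and 615, 70.9 and 73.6 CPM in senescent replicates 1, 2 and 3, so that replicate 1 was far above the others in both groups. Thy1 had a log2 fold change of 0.45 (limma adjusted p = 0.756, or 0.0127 with the replicate number as a block).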
